A study of Mus musculus with 2 samples.

Results

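Autophagy machinery genes were compared between 2 cultures of mouse bone marrow cells, macrophages and osteoclasts. The set was a list of 41 genes, and its members were found as all probes whose gene symbol in the platform's probe annotation was on the list. It held 83 probes for 39 of these genes, out of 45281 probes and 19057 named genes on the array. No probe carried the symbol Atg14 or Optn, so these 2 members are not described. Both samples came from C57BL/6J mice aged 8 to 12 weeks, with 3 mice per sample and 1 Illumina bead array each. The macrophages were marrow cells from tibia and femur grown with macrophage colony-stimulating factor (M-CSF) at 25 ng/ml, and the labels give a first culture of 4 days in that factor. The osteoclasts had 3 further days with M-CSF at the same dose and soluble RANKL, the cytokine that turns these precursors into bone-resorbing cells, at 30 ng/ml. Neither culture is described as sorted, and the labels do not say on which day the macrophages were collected. The labels place the arrays on different chips, so chip, day of handling and cell type cannot be told apart. Each group was read on 1 array, so the spread between samples is unknown, no test was run, and every difference below is between these 2 arrays.

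Autophagy is the route by which a cell wraps part of its cytoplasm in a double membrane and delivers it to the lysosome. The ULK kinase complex starts the process, a class III phosphatidylinositol 3-kinase complex marks the membrane, and conjugation enzymes attach proteins of the LC3 and GABARAP families to the growing membrane. Cargo receptors bind those proteins, and the HOPS complex tethers the closed autophagosome to the lysosome. In osteoclasts, parts of this machinery, Atg5 and LC3 among them, are also known to direct secretory lysosomes to the ruffled border, the membrane that faces the bone.

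Intensities were corrected for background, put on a log2 scale after adding an offset of 16, and quantile normalized over the whole table. A difference is osteoclast minus macrophage on that scale, where the change of a dim gene comes out too small. A gene was called where it was detected on at least 1 array and lay at least 2-fold apart, and it was represented by its brightest probe. Since no replicate array exists, the disagreement between probes of the same gene was the only internal measure of error. Over 3879 genes with several probes detected on both arrays, the SD between probes of a gene was 0.43 log2 units, and for 20 members it was 0.35. It covers probe design and transcript forms and says nothing of the spread between mice.

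The labels were checked against marker genes. Ctsk, the collagen-degrading cathepsin, had an intensity of 55.4 in macrophages and 50206 in osteoclasts, and Acp5, the acid phosphatase used to stain osteoclasts, had 24.4 and 2196. Of 10 macrophage markers 9 had a probe. Of these 9, all detected on both arrays, 8 were at least 2-fold lower in osteoclasts, with a summed intensity of 60340 in macrophages and 20702 in osteoclasts. The receptor genes Adgre1 and Csf1r were 2.41-fold and 2.80-fold lower, and the exception, the scavenger receptor gene Msr1, read 104 and 270, a difference of 0.37 log2 units after normalization. Of 10 osteoclast markers 9 were detected on the osteoclast array, the exception being Atp6v0d2, and 6 on the macrophage array. Of the 9, 8 were at least 2-fold higher in osteoclasts. Itgb3 read 7.93 and 42.8, a difference of 0.71 log2 units after normalization. Markers of other cells also differed between the arrays. All 10 granulocyte markers were at least 2-fold lower on the osteoclast array, with a summed intensity of 49104 against 882, and Mpo and Retnlg were not detected there. Skeletal muscle markers were at least 2-fold higher there in 9 of 10 genes, with a sum of 114 in macrophages, where Acta1, Ckm, Myh1, Myh4, Myl1 and Tnnc2 were not detected, and 15608 in osteoclasts. Epidermal markers were higher in 9 of 9 genes (sums of 103 and 18515, with Krt1, Krt5, Krt14, Lor, Sfn, Sprr1b and Trp63 not detected in macrophages). The fibroblast list was higher in 6 of 9 detected genes (31.9 and 2187, with Col1a1, Col3a1, Col5a1, Dcn, Lum, Postn and Thy1 not detected in macrophages, and Postn on neither array). The adipocyte list was higher in 3 of 6 (18.2 and 471, with Adipoq, Cidec, Plin1 and Plin4 not detected in macrophages). The part of these other cells in the results below was not tested, and in such bulk samples fewer cells of a type and less RNA per cell cannot be told apart.

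Most of the autophagy machinery differed little between the arrays. Of the 39 genes with a probe, 37 were detected, all of them on both arrays, and 34 of these lay within 2-fold. Map1lc3a was called higher in osteoclasts, and Ulk1 and Atg2a were called lower. Among all 13103 detected genes, 11.5% were called higher and 8.15% lower, 19.6% in all, against 8.11% of the members. The median difference of the members was -0.27, with quartiles of -0.64 and 0.06, and that of all detected genes was -0.05, with quartiles of -0.49 and 0.47. Differences below 0 made up 27 of the 37 members, or 73.0%, and 52.9% of all detected genes. The members were bright: their median intensity stood at percentile 89.0 of all probes in macrophages and 86.0 in osteoclasts, and 33 of them fell in the upper 2 of 4 equal brightness classes of detected genes. In those classes the members' medians were -0.56 (17 genes) and -0.38 (16 genes), beside -0.06 and -0.02 for all genes of the same class. The other 4 members, in the next dimmer class, had a median of 0.12, beside -0.10 for all its genes.

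**Figure D1:**
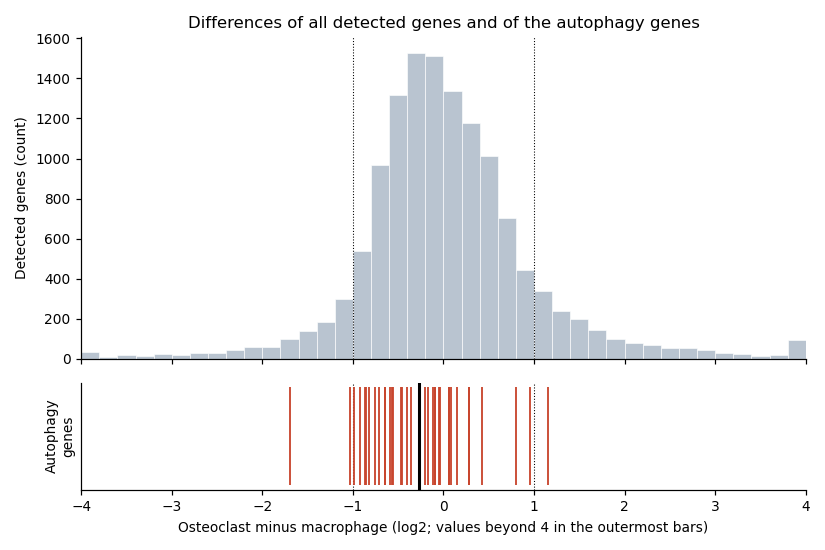
Upper panel, number of detected genes (vertical axis) by osteoclast minus macrophage difference (horizontal axis, log2 units), with dotted lines at 2-fold. Lower panel, the 37 detected autophagy genes as lines on the same axis with their median of -0.27 in black, all but 3 of them between the dotted lines.

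These directions depend on the scaling between the arrays. The osteoclast array was brighter throughout: among probes detected on both arrays, its median of the corrected intensity plus the offset was 1.75 times that of the macrophage array. As deposited, 31 of 37 members had the higher intensity on the osteoclast array, which is 83.8% beside 78.0% of all detected genes. Without normalization the members' median was 0.45 and that of all genes 0.58, a shift of all genes by 0.64 log2 units, and 6 members were past 2-fold upwards and 0 downwards, with 29.1% and 2.87% of all genes. With median scaling the medians were -0.36 and -0.23, and 9.96% of all genes were called higher and 13.7% lower. Higher genes made up 58.5% of all called genes after quantile normalization, 42.1% with median scaling and 91.0% without normalization. The sign at the brightest probe was compared under 6 settings, the 5 that normalized the arrays here and the authors' processed values, whose normalization is not given in the sources used here. Of the members, 24 were below 0 in every setting, 10 were above 0 in every setting, and 3 (Pik3r4, Atg2b and Wipi2) changed sign. Averaging over detected probes also took Becn1 from 0.06 to -0.115 and Atg16l1 from -0.10 to 0.11.

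**Figure D2:**
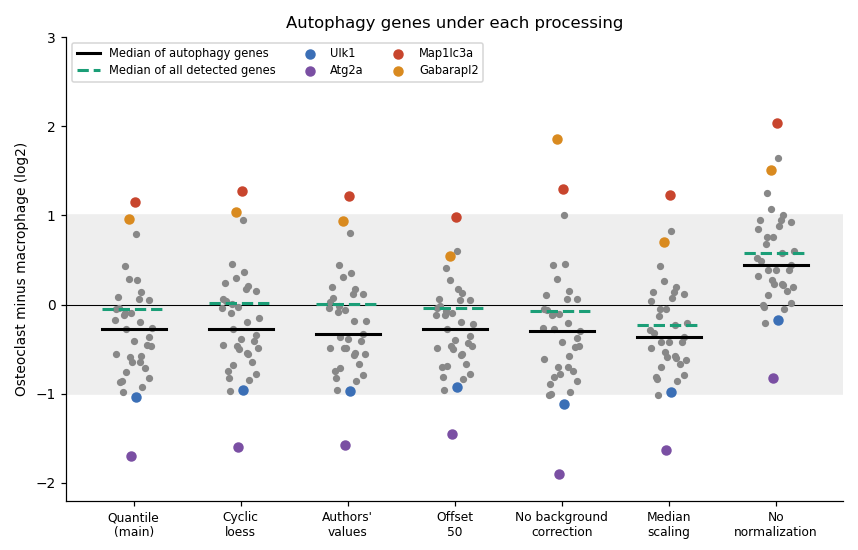
Osteoclast minus macrophage difference (vertical axis, log2 units) of the 37 detected autophagy genes as points under 7 ways of processing (horizontal axis), with the members' median in black, the median of all detected genes dashed and the grey band marking differences within 2-fold. Atg2a stays below the band in the other 6 settings and moves to -0.83 without normalization, where the members' median is 0.45.

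Promoter sequences are shown for the 2 members called lower, and for 4 measured members whose promoter holds the palindrome CACGTG, the core of the element bound by TFEB and its relatives MITF and TFE3, which are known regulators of lysosomal and autophagy genes. Each is 300 bases, from 250 before to 50 after a start site annotated for the gene, from RefSeq on build GRCm38.p6, written 5′ to 3′ on the strand of the gene. Some members have several annotated start sites, and whether the site shown is the main one was not examined. Capitals mark CACGTG, which reads the same on both strands.
Ulk1, chr5:110810032-110810331, minus strand: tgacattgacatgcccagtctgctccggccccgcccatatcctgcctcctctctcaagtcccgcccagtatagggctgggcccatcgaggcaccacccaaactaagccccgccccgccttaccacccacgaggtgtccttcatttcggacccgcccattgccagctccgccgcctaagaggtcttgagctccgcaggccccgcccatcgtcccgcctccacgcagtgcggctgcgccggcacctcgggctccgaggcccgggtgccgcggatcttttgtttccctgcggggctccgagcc
Atg2a, chr19:6241418-6241717, plus strand: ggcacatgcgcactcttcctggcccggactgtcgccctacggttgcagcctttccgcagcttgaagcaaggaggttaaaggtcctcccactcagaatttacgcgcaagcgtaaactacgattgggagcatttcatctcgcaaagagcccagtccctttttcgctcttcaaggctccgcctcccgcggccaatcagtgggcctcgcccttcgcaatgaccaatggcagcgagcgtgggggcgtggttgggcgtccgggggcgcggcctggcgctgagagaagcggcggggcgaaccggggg
Atg3, chr16:45158579-45158878, plus strand: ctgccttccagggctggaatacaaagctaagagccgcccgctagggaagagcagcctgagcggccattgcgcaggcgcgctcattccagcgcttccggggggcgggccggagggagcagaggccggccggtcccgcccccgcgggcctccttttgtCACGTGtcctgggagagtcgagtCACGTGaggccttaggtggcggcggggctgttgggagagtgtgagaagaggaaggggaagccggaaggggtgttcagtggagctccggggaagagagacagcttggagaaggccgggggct
Atg5, chr10:44268089-44268388, plus strand: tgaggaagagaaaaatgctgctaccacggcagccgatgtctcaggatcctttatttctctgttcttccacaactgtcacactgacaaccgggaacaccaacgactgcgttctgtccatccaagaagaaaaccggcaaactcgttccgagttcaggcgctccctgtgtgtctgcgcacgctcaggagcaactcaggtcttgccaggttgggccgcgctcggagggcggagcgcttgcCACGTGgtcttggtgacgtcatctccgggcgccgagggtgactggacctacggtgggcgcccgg
Atg7, chr6:114670846-114671145, plus strand: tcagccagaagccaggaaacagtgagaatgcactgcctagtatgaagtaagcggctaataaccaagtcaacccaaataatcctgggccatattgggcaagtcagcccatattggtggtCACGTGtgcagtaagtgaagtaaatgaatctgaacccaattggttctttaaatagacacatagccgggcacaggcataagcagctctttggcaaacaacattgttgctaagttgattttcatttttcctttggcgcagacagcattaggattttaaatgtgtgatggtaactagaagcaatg
Vps16, chr2:130424070-130424369, plus strand: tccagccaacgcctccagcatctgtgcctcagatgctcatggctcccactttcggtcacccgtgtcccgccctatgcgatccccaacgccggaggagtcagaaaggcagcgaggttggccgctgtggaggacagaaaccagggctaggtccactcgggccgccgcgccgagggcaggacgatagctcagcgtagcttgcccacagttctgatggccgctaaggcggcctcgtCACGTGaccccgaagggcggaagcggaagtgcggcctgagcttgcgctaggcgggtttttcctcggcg

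The RefSeq table held 37 promoters for 33 of the 41 members. Map1lc3a, the member called higher, had no entry there, so its promoter was not searched. CACGTG lay in 5 of these promoters (13.5%), those of Atg3, Atg5, Atg7, Atg14 and Vps16, and in 7.15% of all 32851 promoters of the same length. In Atg3 it occurred at 2 places, 94 and 71 bases before the start. The windows of Ulk1 and Atg2a did not hold these letters. The forkhead motif TGTTTAC, searched on both strands, was in 0 of the 37 and in 3.65% of all. These are descriptions of letters in a window. The 4 measured carriers differed by 0.15 (Atg3), -0.12 (Atg5), -0.59 (Atg7) and -0.46 (Vps16), all within 2-fold.

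The ULK complex had the lowest median of the 7 role groups, at -0.84 over 4 detected genes, all of them below 0. Ulk1 (Entrez Gene 22241), the kinase that starts autophagy and is itself held in check by mTORC1, had an intensity of 301 in macrophages and 264 in osteoclasts at its brighter probe (values below are in this order). Its other probe read 175 and 120, so both were dimmer on the osteoclast array although that array was the brighter overall. After normalization the brighter probe was 2.04-fold lower (difference -1.03) and the other 2.53-fold lower (-1.34). The call sits at the 2-fold line: the brighter probe was at -0.97 in the authors' processed values, -0.95 with cyclic loess, -0.92 with an offset of 50 and -0.17 without normalization. Ulk2, the related kinase, had intensities of 336 and 322 at its brighter probe and differed by -0.92, and its other probe, at 90.7 and 93.3, differed by -0.81. Atg13, the adaptor that links the kinase to its partners, read 312 and 337 and differed by -0.76. Atg101, which stabilises Atg13, read 945 and 1240 and differed by -0.41. Rb1cc1, the scaffold also called FIP200, was not well above background at any of its 3 probes on either array, so nothing can be said of its difference. The median of this group was 0.03 without normalization, beside 0.58 for all genes.

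**Figure D3:**
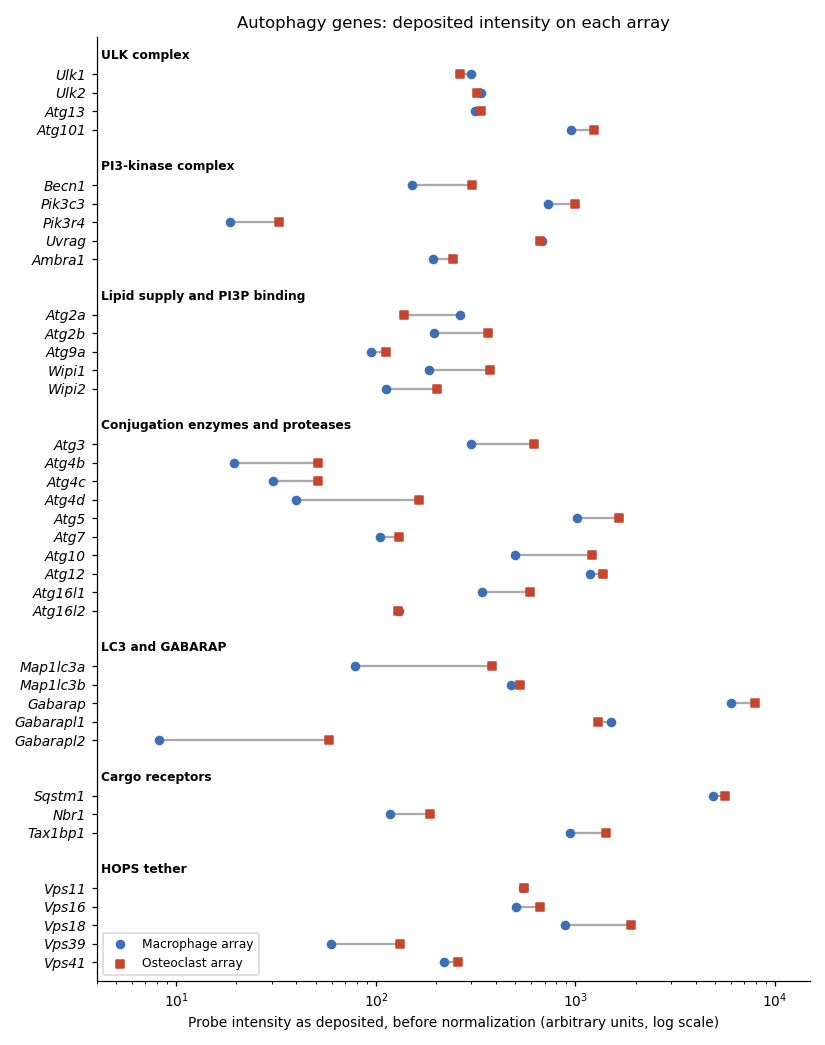
Deposited probe intensity before normalization (horizontal axis, arbitrary units, log scale) in macrophages (circles) and osteoclasts (squares) for each detected autophagy gene, grouped by role. The osteoclast square lies to the right in 31 of 37 genes, and Atg2a, with 264 and 139, shows the widest gap to the left.

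The phosphatidylinositol 3-kinase complex lay within 2-fold throughout, with a median of -0.36 over 5 genes. Becn1, which encodes the scaffold Beclin 1, read 151 and 304 and differed by 0.06 at its brightest probe, and by -0.29 at another (57.9 and 93.3). Pik3c3, the catalytic subunit VPS34, read 725 and 995 and differed by -0.36. Pik3r4, its regulatory subunit VPS15, was dim at 18.6 and 32.7 and differed by -0.03, or by -0.32 with median scaling and 0.07 in the authors' values. Of the factors that steer the complex, Uvrag, which directs it to endosomes and late autophagosomes, had the largest difference at -0.86 (677 and 662). A second probe of Uvrag, detected on the macrophage array only, was at least 1.28-fold lower. Ambra1, which joins Beclin 1 to its activators, differed by -0.56 at its brightest probe (193 and 245), by -0.98 at the next (174 and 160) and by -0.09 at a dim probe (15.1 and 24.4).

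Among the proteins that supply lipid and bind the marked membrane, Atg2a stood apart. Atg2a (Entrez Gene 329015) encodes a lipid transfer protein that feeds the growing membrane, and its brightest probe read 264 and 139, a 3.24-fold lower level after normalization (-1.70). The 3 other probes, all detected on both arrays, read 149 and 185, 105 and 102, and 9.37 and 9.09, and differed by -0.58, -0.88 and -0.31. All 4 probes were below 0, but 1 was past 2-fold, and Atg2a was the member whose probes ranged over more than 1 log2 unit, as did those of 11.3% of the 3879 genes. The mean over its probes was -0.87. Its brightest probe was past 2-fold under each of the same 6 settings, from -1.90 to -1.45, and no other member was past 2-fold in all 6. Atg2b, the paralog, read 194 and 365 and differed by -0.05, with another probe at -0.55. Atg9a, the scramblase of the vesicles that seed the membrane, differed by -0.64 (94.6 and 113). A second, dim probe of Atg9a (3.70 and 9.21), detected on the osteoclast array only, was at least 1.01-fold higher. The mean over the detected probes of Atg9a was -0.29. The lipid-binding proteins Wipi1 and Wipi2 lay near the median of all genes. The 3 probes of Wipi1 differed by 0.06, 0.12 and 0.19, and those of Wipi2 by -0.09, 0.08 and -0.44.

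**Figure D4:**
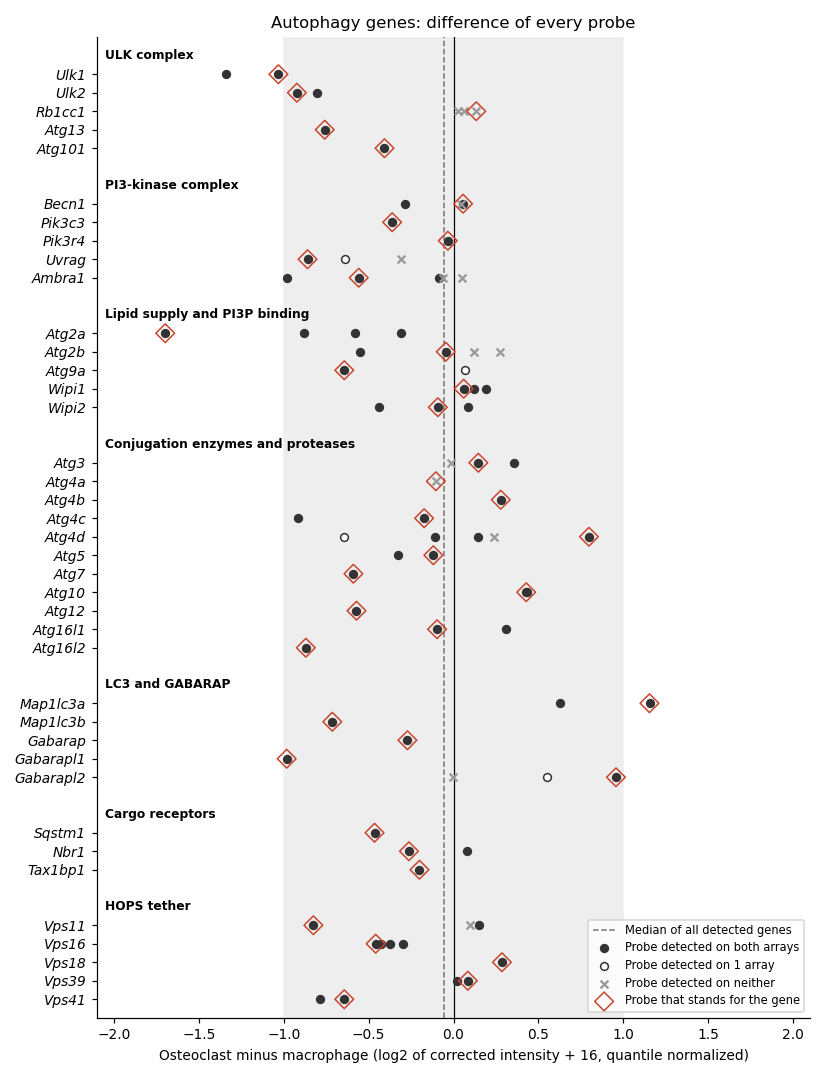
Osteoclast minus macrophage difference (horizontal axis, log2 units) of each of the 83 probes by gene, with filled circles for probes detected on both arrays, open circles for 1 array, crosses for neither, and diamonds around the probe that stands for the gene. The grey band spans differences within 2-fold; the 4 detected-on-both probes outside it belong to Ulk1 (2 probes), Atg2a and Map1lc3a.

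The conjugation enzymes and proteases, the largest group, held no called gene among 10 detected and had a median of -0.11. The E2-like enzymes were on the higher side. Atg10, which carries Atg12 to Atg5, read 497 and 1206 at its brighter probe and differed by 0.43, and its second probe (50.6 and 152) also differed by 0.43. Atg3, which carries LC3 to its lipid, read 298 and 618 and differed by 0.15, with 0.35 at a dimmer probe. Atg7, the E1-like enzyme that activates both conjugates, read 105 and 130 and differed by -0.59. The difference of Atg10 exceeded that of Atg7 by 1.02, and by 0.88 to 1.14 at these probes over the 7 ways of processing (1.02 with the mean over detected probes). Median scaling shifts a whole array by a constant, so in such a contrast it must give the same value as no normalization. Contrasts between members, here and below, were not planned, and each sets a higher member against a lower one. The lower members Atg7, Map1lc3b and Gabarapl1 had 1 probe each, as did 15 of the members. In their contrasts, averaging over probes could change the higher member only. Within the conjugate that Atg10 makes, Atg12 differed by -0.57 (1181 and 1373) and Atg5 by -0.12 (1023 and 1646), with -0.33 at the second probe of Atg5. Atg16l1, which places that conjugate on the membrane, differed by -0.10 (342 and 593). A dim second probe of Atg16l1 (5.71 and 20.3) differed by 0.31, and the mean over its detected probes was 0.11. Its relative Atg16l2 differed by -0.87 (131 and 129), or -1.02 without background correction.

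The Atg4 proteases, which prepare LC3 proteins for conjugation and later release them, were dim, and their probes disagreed. Atg4d differed by 0.80 at its brightest probe (39.9 and 165), while 2 further probes detected on both arrays differed by -0.11 and 0.15. Another probe of Atg4d, detected on the macrophage array only, was at least 1.19-fold lower, so the higher value rests on 1 probe, and the mean over detected probes was 0.05. Atg4c differed by -0.17 (30.6 and 51.1) and by -0.92 at its other probe (27.8 and 15.6). Atg4b, the most active of the family towards LC3, read 19.6 and 51.3 and differed by 0.28. The only probe of Atg4a was below the detection limit on both.

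The LC3 and GABARAP genes, whose products coat the membrane and hold the cargo receptors, held the widest spread of any role group, from -0.98 to 1.15. Map1lc3a (Entrez Gene 66734) read 78.3 in macrophages and 383 in osteoclasts at its brighter probe and was 2.23-fold higher (1.15). Its other probe read 44.6 and 160 and was 1.54-fold higher (0.62). Both probes were above 0, and their mean, 0.89, is within 2-fold. With an offset of 50 the brighter probe was at 0.98. Map1lc3b, the form most often followed as LC3 in cell biology, read 473 and 525 at its only probe and differed by -0.71. The difference of Map1lc3a thus exceeded that of Map1lc3b by 1.87, and by 1.65 to 2.04 over the 7 ways of processing at these probes and 1.60 with the mean over detected probes. The SD of 0.43 between probes of a gene is for the difference of a single probe. It is not the error of a contrast between genes and holds no spread between samples. With the scaling alone changed (quantile, median, cyclic loess or none), the contrast of Map1lc3a over Map1lc3b at the brightest probes was 1.87 to 1.92. Median scaling and none give the same value here by construction.

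The GABARAP branch, which acts later in closure of the membrane and in fusion, was split in a similar way. Gabarapl1, with 1 probe, read 1506 and 1303, among the 6 members with the lower deposited intensity on the osteoclast array, and differed by -0.98. It was at -1.01 with median scaling and -0.20 without normalization. Gabarap, bright on both arrays (6044 and 7899), differed by -0.27. Gabarapl2, also called GATE-16, was dim in macrophages at 8.23 and read 58.5 in osteoclasts, a difference of 0.96, just inside 2-fold. Leaving out the background correction put it at 1.86, and an offset of 50 at 0.55. A second probe of Gabarapl2, detected on the osteoclast array only (9.52), was at least 1.02-fold higher, and the last was detected on neither array. The difference of Gabarapl2 exceeded that of Gabarapl1 by 1.94, with a range of 1.51 to 2.86 at these probes over the ways of processing and 1.74 with the mean over detected probes.

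The cargo receptors lay close to each other, with a median of -0.26 over 3 genes. Sqstm1 encodes p62, which carries ubiquitin-tagged cargo to LC3 and is also a scaffold in RANK signalling. It was bright on both arrays, at 4909 and 5614, and differed by -0.47. Nbr1, a related receptor, differed by -0.26 (118 and 188) and by 0.08 at its other probe (73.8 and 162). Tax1bp1, another ubiquitin-binding receptor, read 939 and 1416 and differed by -0.20.

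The HOPS tether held no called gene, and its median was -0.46 over 5 genes. Of these, 3 were below 0, and Vps18 and Vps39 were above. Vps18, a core subunit, differed by 0.29 (890 and 1889). Its partner Vps11 differed by -0.83 (545 and 551), although a dim probe of Vps11 (16.2 and 36.0) differed by 0.15. The contrast of Vps18 over Vps11 at their brightest probes was 1.11, but 0.62 with the mean over the detected probes of each gene. Vps16, also in the core, had 4 probes detected on both arrays, which differed by -0.30 to -0.46. Of the 2 subunits that bind the membranes to be joined, Vps41 differed by -0.64 and -0.79 at its probes, and Vps39 by 0.08 and 0.02. Vps33a, the subunit that helps assemble the fusion proteins and belongs to the wider list below, differed by -0.44, with -0.92 at its other probe.

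Other genes of the pathway were read from a wider list of 52 symbols, of which 48 had a probe and 46 were detected. In this list 1 gene was called higher and 6 lower, 39 lay within 2-fold, and the median was -0.29. These are 2.17% and 13.0% of the detected genes of the list, beside 11.5% and 8.15% of all detected genes, whose median was -0.05. The 16 detected upstream regulators, among them the subunits of mTORC1 and AMPK, held 0 called genes, with differences from -0.57 to 0.73. The nutrient-sensing kinase gene Mtor differed by -0.33 (185 and 279), with -0.01 at another detected probe. Rptor, the partner of Mtor in mTORC1, differed by 0.34 (406 and 941), with 0.0007 at another detected probe. Prkag2, a regulatory subunit of AMPK, had the largest difference of these at 0.73 (101 and 345).

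The 6 lower genes of the wider list act at different steps. Ccpg1, a receptor for autophagy of the endoplasmic reticulum, read 1793 and 1090 and was 2.78-fold lower (-1.47). Tecpr1, which takes part in fusion of autophagosomes with lysosomes, read 98.9 and 57.8 and was 2.59-fold lower. Rubcn encodes Rubicon, which restrains the phosphatidylinositol 3-kinase complex in autophagy and is required for LC3-associated phagocytosis. It read 208 and 160 and was 2.34-fold lower. Wdfy3, a scaffold for removal of protein aggregates, was 2.30-fold lower at its brightest probe (35.6 and 14.6), while the highest of its 3 probes detected on both arrays was at -0.18. Wdr45, a relative of the Wipi proteins, was 2.28-fold lower (498 and 391). Its paralog Wdr45b differed by -0.32, with a range of -0.65 to -0.13 over its 4 probes detected on both arrays. Snap29, a fusion protein that pairs with Stx17 and Vamp8, was 2.24-fold lower (712 and 560). Stx17 differed by -0.19, with -0.45 at its other probe, and Vamp8 by -0.31, with -0.27 at its other probe. These 6 genes had lower deposited intensities on the osteoclast array, and without normalization 0 were past 2-fold. The higher gene was Bcl2, the survival factor that binds Beclin 1. It was not well above background in macrophages and read 35.4 in osteoclasts, so it was at least 1.74-fold higher, which is under the 2-fold rule. Plekhm1, a Rab7 effector that binds HOPS and is mutated in a form of osteopetrosis, differed by 0.41 (1976 and 4346), with -0.12 at its other probe, and Rab7 itself by 0.30 (2193 and 4491).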

How the data were processed

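Messenger RNA was read on 1 Illumina bead array per sample from biotin-labelled cRNA, per the labels' protocols. The authors deposited 1 intensity per probe and array, not normalized; 38.4% and 36.9% of the values lie below 0, so a background had been subtracted and its method is not given in the sources used here. In the authors' table, the deposited log2 values followed the log2 ratio of the intensities (slope 0.97 and r = 0.999 across 5844 probes with intensities over 200, which are not independent replicates). Their columns had medians of 5.00 and 5.05. This settles their scale and direction, but not the method of centring or normalization. In the authors' values the median difference of all detected genes was 0.004, beside 0.58 without normalization. The planned detection p-values and control probes are not in the tables used here, so the background was estimated from the mode of each array and the spread below it (-3.86 with SD 3.55, and -5.33 with SD 5.41). These entered limma's normexp correction (limma 3.58.1, R 4.3.3), followed by the offset of 16 and quantile normalization. A probe was detected above the upper 0.01 tail of this background, taken as normal (intensities of 4.40 and 7.25), and the true false detection rate is unknown. Bounds for genes detected on 1 array use the lowest signal of a detected probe on the other. The number of arrays limits the precision.

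Symbols came from the platform annotation (34885 probes with 1 gene, 18 with several, which named none, and 10378 not listed). Members at least 2-fold apart, or whose probes differed by over 1 log2 unit, were described in full. Of the wider list, up to 6 genes past 2-fold in each direction were named by rule, and the others after their values were seen. Members and lists were chosen with earlier results of these data known. The processing was tested on simulated data, with changes in equal number up and down among brighter probes. That simulation cannot show how the scaling behaves where changes are unequal in direction or genes are dim. Later steps used Python 3.11.15, numpy 2.4.6 and pandas 2.3.3. There were 12 alternatives.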

Additional observations from a re-analysis of the deposited data

How the results depend on the processing

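No paired analysis was possible because there was 1 array per group. With no replicates, a difference or median was taken to have moved when it shifted by more than 0.43, the SD between probes of a gene. This rule does not apply to counts, and some counts not named here also changed. Cyclic loess, median scaling, the authors' values and an offset of 50 moved none (0) of the 37 member differences. The 3 other detection limits (p of 0.05, p of 0.001 and none), bounds, and genes detected on both arrays only could not move them. All 37 were detected on both arrays, and the probe was chosen by brightness alone, so these settings say nothing of stability. No background correction moved 1, Gabarapl2, to 1.86. Omitting normalization moved all 37. It gave 6 members higher and 0 lower (9 and 0 of the wider list, 3814 and 376 of all genes), with medians of 0.45 for members, 0.53 for the wider list and 0.58 for all genes. Its role group medians were 0.029 (ULK), 0.45 (PI3-kinase), 0.76 (lipid supply), 0.72 (conjugation), 0.39 (LC3 and GABARAP), 0.58 (cargo receptors) and 0.39 (HOPS). The members' called count of 1 higher and 2 lower became 3 higher and 3 lower without background correction. It became 2 higher with cyclic loess, and 0 higher with an offset of 50 or the mean over detected probes. It became 1 lower in the authors' values, with cyclic loess, an offset of 50 or the mean over probes. In the wider list the 1 higher gene became 2 without background correction, and 0 in the authors' values, with median scaling, an offset of 50, genes detected on both arrays, the mean over probes or bounds. Among all genes (13103 detected in the main setting), the main setting called 1503 higher and 1068 lower. No background correction gave 2812 higher and 2646 lower, median scaling 1305 and 1794, and cyclic loess 1587 and 923. The authors' values gave 1523 and 947, an offset of 50 gave 1031 and 739, and the mean over probes 1330 and 923. The cause of these shifts was not tested. Averaging probes moved Atg2a to -0.87, Atg4d to 0.05 and Vps11 to -0.34.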

Other observations

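A probe annotated to both Cntd1 and Becn1, which names neither gene, read 43.2 in macrophages and 37.3 in osteoclasts and differed by -0.80, where the brightest probe of Becn1 differed by 0.06. Of the 83 member probes, 73 were annotated to curated RefSeq transcripts and 61 of these were detected on both arrays, while of the 10 annotated to cDNA clones 4 were.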
